A study of Oryza sativa Japonica Group with 9 samples.

Results

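WOX11 belongs to the WUSCHEL-related homeobox transcription factors and is best known in rice for its role in the formation of crown roots and for activity in dividing tissues of the shoot. JMJ705, a histone demethylase, takes methyl groups off lysine 27 on histone H3, where Polycomb proteins place them at silent genes. The shoot apex holds the meristem, in which KNOX genes such as OSH1 are active, and the youngest leaves, in which the photosynthetic machinery is being built.

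Messenger RNA of wox11 mutant apices was compared with that of wild-type apices, at 2 libraries per genotype, which are 4 of the 9 samples of the series. Both genotypes were of the rice cultivar Hwayoung. Seedlings were 5 days old and had grown at 28 °C for 14 h of light and at 24 °C for 10 h of darkness, on medium with sucrose, and 2 to 3 mm of the shoot tip was taken. The 2 libraries of a jmj705 mutant, grown alike, share the estimate of spread, and their values are given beside those of wox11. The mutant alleles, the number of plant lines and of pooled apices per library, and the hour of harvest were not stated by the sources at hand. The libraries labelled jmj705 held more JMJ705 transcript than the others, so that "jmj705" stands below for the libraries with that label.

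Loci were kept when they carried a gene name, had a complete estimate in all 6 libraries and reached at least 1 FPKM (fragments scaled to transcript length and to library size, a level per length) in at least 2 of the 6 libraries. That left 21480 of 57567 loci. Changes are differences of log2(FPKM + 1), which understates the change of low loci, and they are called at an adjusted p under 0.05 by limma, with Benjamini-Hochberg adjustment over all 21480 loci. With 2 libraries on each side, the p-values measure only the spread between libraries, which the submitters describe as biological repeats. In whole tissue, fewer cells of a type and less RNA per cell cannot be told apart. Genes are named only where the RefSeq table places the symbol at a like position, and all others go by their locus number. Positions are those of the deposited tables, whose genome build the sources at hand do not name.

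Of the 21480 loci, 180 were called, which is 0.838% of them. Of these, 98 were higher in wox11 (0.456% of tested loci) and 82 were lower (0.382%). Of the 180, 41 join several loci or share coordinates with another entry (23 higher and 18 lower), so their reads may be divided. Among all 21480, 16872 do neither. In a fit of those 16872 alone, the 139 called loci among them all kept their calls. Entries that share coordinates include OsTrxf, EXLA4, LSD1, LOC_Os07g37550, LOC_Os02g39360 and LOC_Os04g56060. The loci that rose were mostly low in wild type, and those that fell were mostly well expressed there. The rises were also larger, with a median log2 change of 1.84 (0.705 to 5.9) against -1.24 (-4.48 to -0.737) for the falls. A change of at least 2 on the log2 scale was reached by 42 loci that rose and 10 that fell. Most calls depended on having both libraries of each genotype: 21 of the 180 were called under each of 16 other settings and 25 in each fit that left out 1 library, while 136 were called in neither of the fits without a wox11 library.

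**Figure D1:**
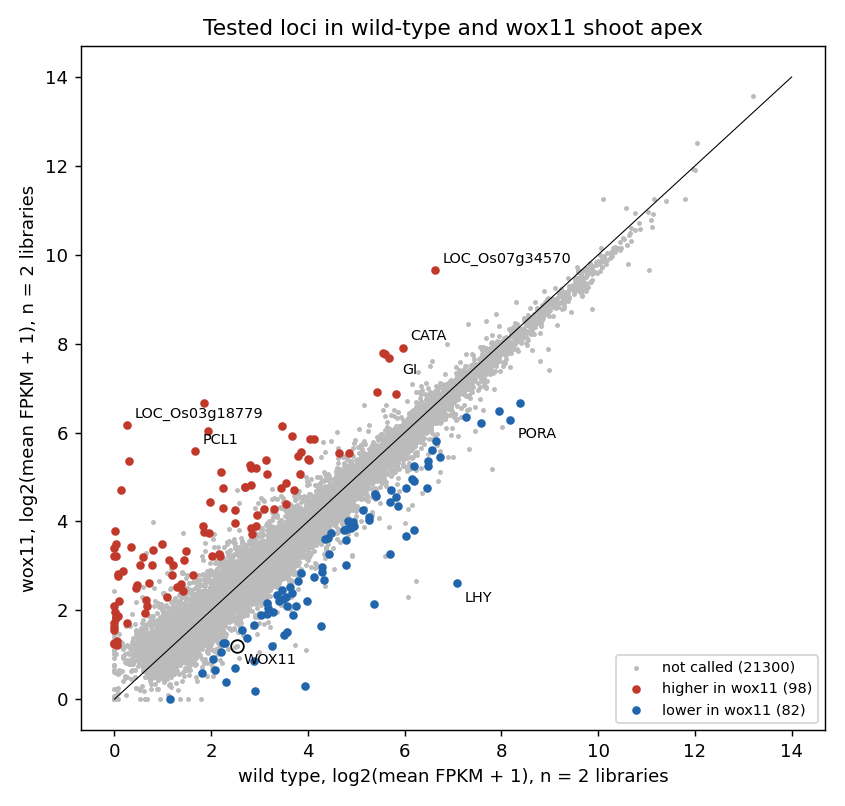
Mean level of each tested locus in wild type (x axis) and wox11 (y axis), both as log2(mean FPKM + 1) over 2 libraries, with the diagonal of equal levels. The 98 loci higher in wox11 are red, the 82 lower ones are blue, and WOX11, which was not called, is ringed.

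WOX11 itself (LOC_Os07g48560, chromosome 7, 29073043 to 29075687) checks the labels. It stood at 4.52 and 5.00 FPKM in wild type, 1.49 and 1.11 in wox11, and 4.57 and 7.56 in jmj705. Both wox11 libraries lay below the other 4. The log2 change was -1.33 (SE 0.23, adjusted p = 0.0575), which misses the threshold, and its adjusted p ranged from 0.0388 to 0.305 over 16 other settings of the analysis. JMJ705 (LOC_Os01g67970) stood at 7.41 and 6.73 FPKM in wild type and at 8.39 and 8.10 in wox11, with 13.7 and 12.5 in the libraries labelled jmj705. The libraries labelled jmj705 thus stood above the other 4, and wox11 lay slightly above wild type. The log2 change of JMJ705 in wox11 was 0.20 (SE 0.13, adjusted p = 0.688). Neither locus tells which part of the transcript a mutation removes.

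Among the 8 tested neighbours on each side of WOX11, 1 was called. LOC_Os07g48570, which starts 1509 bp beyond the WOX11 locus, stood at 18.8 and 22.3 FPKM in wild type, 9.84 and 7.54 in wox11, and 14.3 and 14.1 in jmj705. Its wox11 libraries lay below the other 4, with a log2 change of -1.16 (SE 0.16, adjusted p = 0.0277). It was called under 8 of 16 other settings and in 0 of the 2 fits without a wox11 library, with an adjusted p up to 0.167. LOC_Os07g48500, on the other side, had 105 ± 18.5 FPKM in the wild-type libraries and 33.4 ± 18.9 in those of wox11 (SD, n = 2 each). It had the most negative log2 change of these neighbours, at -1.73 (adjusted p = 0.117), and was not called. The other neighbours had log2 changes between -0.64 and 0.57.

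The 6 libraries were alike in scale: the FPKM of named loci summed to between 700090 and 820527 per library, and total read depth is unknown. The KNOX genes of the meristem were well expressed. OSH1 stood at 53.1 and 66.3 FPKM in wild type and at 42.7 and 45.9 in wox11, and OSH15 and OSH71 were likewise expressed in all 6 libraries (26.9 to 57.9 FPKM). WOX4, also on the meristem list, was low, at 3.08 and 2.76 FPKM in wild type and 1.535 and 1.875 in wox11. Of the 11 meristem genes as written, 8 were tested. Of the 7 tested meristem genes with a symbol in RefSeq 0 were called, with a median log2 change of -0.41 against -0.02 over all tested loci. The photosynthesis gene CAB2R stood far above OSH1, at 522 and 484 FPKM in wild type and 235 and 101 in wox11. Genes of secondary walls were present as well, CESA4 at 17.2 and 16.5 FPKM in wild type and 20.8 and 23.5 in wox11, and 0 of 4 were called (median 0.28). The seed gene RAMY3D was not among the tested loci. The 2 listed root loci, which RefSeq does not name, were both tested, and 0 were called (median -0.86). Wild-type replicate 1 held 11.9 FPKM of the heat shock gene HSP101, against 0.871 to 1.91 in the other 5 libraries. HSFA2C, the other tested heat shock gene, stood at 6.76 and 1.04 FPKM in wild type, 6.97 and 1.76 in wox11, and 2.31 and 1.19 in jmj705. In each genotype replicate 1 held more HSFA2C. The unnamed loci of wild-type replicate 1 held 71.2% of the summed FPKM, against 86.3 to 95.3% in the other 5 libraries. The part of these differences in the calls was not tested, and fits without wild-type replicate 1 are given below.

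The spread between libraries of a genotype sets what could be called. Over all tested loci the median difference on the log2 scale was 0.182 between the wild-type libraries, 0.142 between the wox11 libraries and 0.143 between the genotypes' means. Over the called loci these medians were 0.168, 0.184 and 1.48. Both wox11 libraries lay above or below both wild-type libraries in all 180 called loci, a pattern that 42.9% of all tested loci also showed (20.3% above and 22.6% below). The gap between the nearest libraries of the 2 genotypes was 0.583 to 5.81 on the log2 scale in called loci, with a median of 1.22. The confidence bounds that the tables give for each FPKM value were apart in all 4 pairs of libraries for 63 of the 180, 42 higher and 21 lower, against 0.317% of all tested loci. The calls rest on the same FPKM values, so the lack of overlap, the gaps and the bounds describe the called set and are not a test.

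At the edge of the threshold the last 2 loci inside were LOC_Os09g25850 and LOC_Os03g01750. LOC_Os09g25850 stood at 1.91 and 1.403 FPKM in wild type and 4.30 and 4.55 in wox11 (adjusted p = 0.0483). LOC_Os03g01750 stood at 26.4 and 29.1 FPKM in wild type and 47.6 and 44.0 in wox11 (adjusted p = 0.0489). The first 2 outside, LOC_Os04g09450 and LOC_Os01g65100, both had an adjusted p of 0.0503. LOC_Os04g09450 stood at 7.23 and 7.03 FPKM in wild type and 3.62 and 3.36 in wox11, and LOC_Os01g65100 at 24.0 and 13.9 in wild type and 51.6 and 56.5 in wox11. In these 4 loci too, the libraries of the 2 genotypes did not overlap.

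Loci that rose and loci that fell came from different levels of wild-type expression. The median wild-type mean was 2.56 FPKM for the 98 loci that rose, 19.4 for the 82 that fell and 11.4 for all tested loci. Below 1 FPKM in wild type, 37 of 920 tested loci rose (4.02%) and 0 fell. From 1 to 5 FPKM 25 rose and 9 fell of 5627, from 5 to 20 FPKM 27 rose and 33 fell of 7584, and from 20 to 100 FPKM 9 rose and 33 fell of 6163. At 100 FPKM and over 0 of 1186 rose and 7 fell (0.59%). The wild-type value enters both the class and the change, so the classes describe the called set and are not a test. In 35 of the 98 loci that rose both wild-type libraries were under 1 FPKM, as in 547 of all 21480 tested loci. Such loci entered the test only through the mutant libraries and so had to differ from wild type in level. In 8 of the 82 loci that fell both wox11 libraries were under 1 FPKM, as in 353 of all tested loci.

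**Figure D2:**
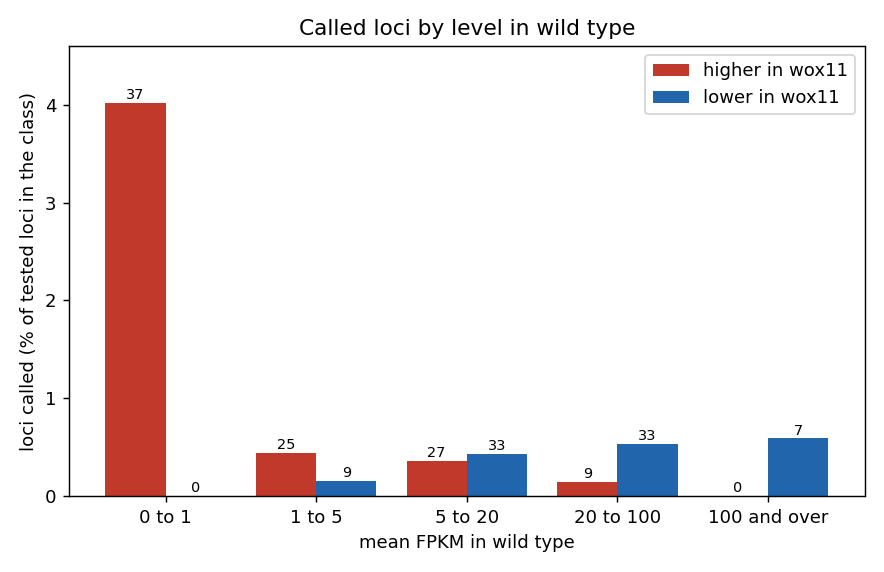
Share of tested loci called (y axis, in percent) by mean FPKM in wild type (x axis), for loci higher (red) and lower (blue) in wox11, with the number of loci above each bar. The lowest class holds 37 loci that rose and 0 that fell, and the highest class 0 that rose and 7 that fell.

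The largest rise was that of LOC_Os03g18779 (chromosome 3, 10518910 to 10520197). It stood at 0.155 and 0.242 FPKM in wild type, 68.6 and 72.5 in wox11, and 0.279 and 0.159 in jmj705. Only the wox11 libraries held more than 1 FPKM of it, and its log2 change was 5.90 (SE 0.15, adjusted p = 2.25e-05). LOC_Os03g43100 had the next largest rise, from 0.178 and 0.277 FPKM to 44.2 and 36.1 (log2 change 5.06, SE 0.16, adjusted p = 3.34e-05), and stood at 11.1 and 12.95 in jmj705. Here the jmj705 libraries lay between those of the other genotypes.

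The entry that joins LOC_Os07g32700 and LOC_Os07g32710 rose from 2.44 and 2.74 FPKM to 86.7 and 113 (log2 change 4.80, SE 0.15, adjusted p = 3.34e-05), with 187 and 191 in jmj705. The entry that joins LOC_Os03g02460 and LOC_Os03g02470 rose from 2.41 and 3.23 FPKM to 68.3 and 61.6 (log2 change 4.12, SE 0.16, adjusted p = 8.89e-05), with 77.7 and 97.5 in jmj705. In both joined entries the genes cannot be told apart, and the jmj705 libraries were the highest.

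CAD9 (LOC_Os03g12270, chromosome 3, 6452948 to 6457850) belongs to the cinnamyl alcohol dehydrogenases, a family whose members make precursors of lignin. It stood at 0.0505 and 0.134 FPKM in wild type, 24.6 and 25.6 in wox11, and 0.0348 and 0.113 in jmj705. The log2 change was 4.58 (SE 0.16, adjusted p = 5.26e-05). A second entry at the same coordinates, which joins LOC_Os03g12270 with LOC_Os03g12280, rose from 7.003 and 5.16 FPKM to 35.5 and 36.0 (log2 change 2.39, adjusted p = 0.00235). Reads may be divided between these 2 entries. In both, the wox11 libraries lay above the other 4.

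Of the remaining large rises, LOC_Os12g40650 went from 0 and 0.0238 FPKM to 13.8 and 11.6, and LOC_Os03g26280 from 0.0293 and 0 to 12.5 and 8.06. LOC_Os12g27800 and LOC_Os04g32610 were listed at 0 in both wild-type libraries and stood at 10.99 and 8.06, and at 8.80 and 7.91, in wox11. All 4 stayed at or under 0.210 FPKM in jmj705, so that only the wox11 libraries held an appreciable level. Their adjusted p was 0.00023, 0.00131, 0.000675 and 0.000403 in this order, and no fold is given against a group at 0. Wherever they were tested under the 16 other settings, the 10 largest rises kept their calls except that of PCL1, described with the clock genes.

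**Figure D3:**
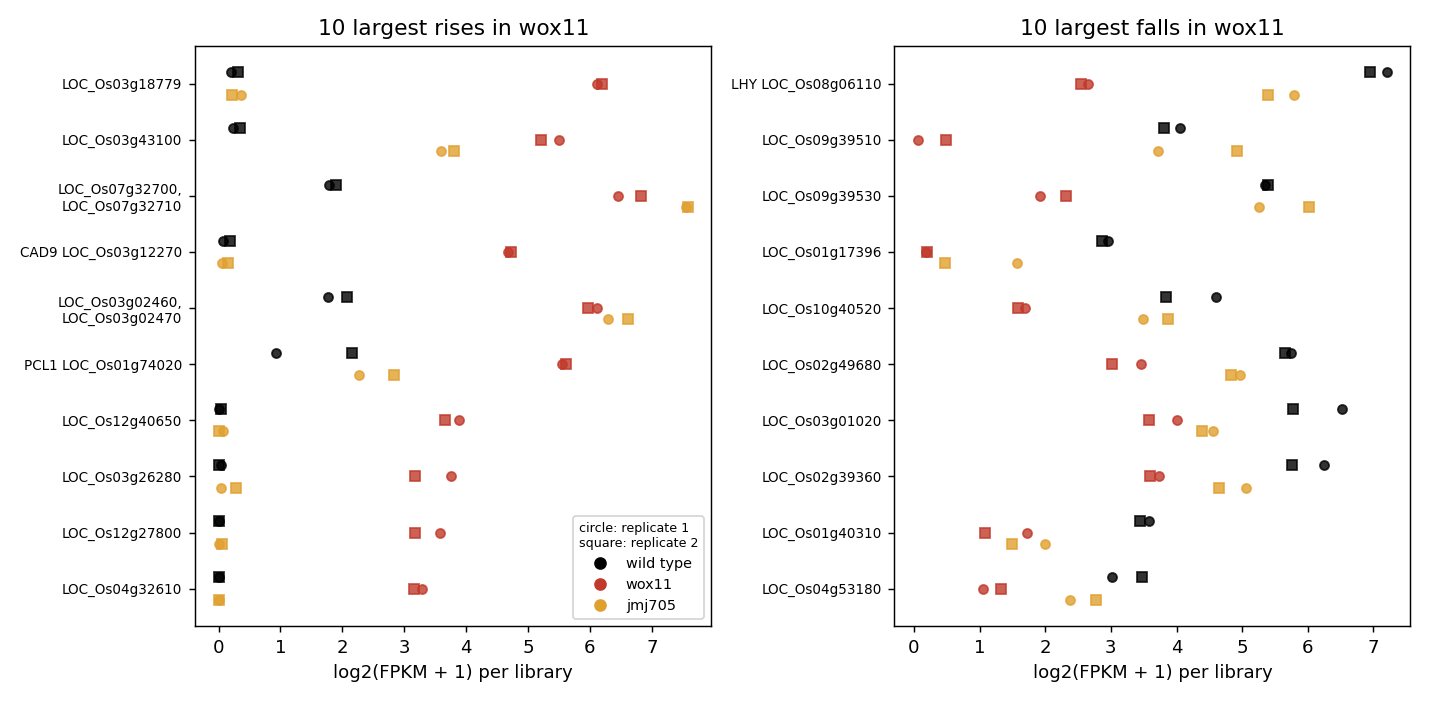
Level of the 10 loci with the largest rise (left) and the 10 with the largest fall (right) in each of the 6 libraries, as log2(FPKM + 1) on the x axis, with circles for replicate 1 and squares for replicate 2. The wild-type (black) and wox11 (red) libraries do not overlap at any of the 20 loci, while jmj705 (yellow) lies with wild type, between, or beyond wox11, depending on the locus.

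A group of loci was close to silent outside wox11. With a level under 0.3 FPKM taken as off and at least 1 FPKM as on, limits that were chosen after the values were seen, 17 loci were on in both wox11 libraries and off in the other 4, and 15 of them were called. LOC_Os03g59190 is 1 of these, at 0.0246 and 0.0797 FPKM in wild type, 6.56 and 5.51 in wox11, and 0.0232 and 0.0240 in jmj705 (log2 change 2.74, adjusted p = 0.00123). LOC_Os12g05220 and LOC_Os09g38104 were listed at 0 in wild type and jmj705 and stood at 3.28 and 3.33 FPKM, and at 2.11 and 2.08, in wox11. A further 9 loci were on in both mutants and off in wild type, of which 7 were called. The reverse was rare: 0 loci were off in wox11 and on in the other 2 genotypes, and 1, LOC_Os08g20630, was off in both mutants (1.29 and 1.15 FPKM in wild type and 0 in the 4 mutant libraries, adjusted p = 0.0447). These loci entered the test through the libraries in which they are on, so their counts describe the set and support nothing further.

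The largest fall was in LHY (LOC_Os08g06110, chromosome 8, 3360786 to 3373471), a MYB transcription factor of the core clock whose transcript peaks near dawn. LHY stood at 147 and 123 FPKM in wild type, 5.31 and 4.85 in wox11, and 54.1 and 40.9 in jmj705. The 3 genotypes did not overlap, with jmj705 in between. The log2 change in wox11 was -4.48 (SE 0.16, adjusted p = 6.23e-05), and LHY was called under each of 17 other settings.

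GI and PCL1, clock genes whose transcripts peak late in the day, rose. GI (LOC_Os01g08700), the rice GIGANTEA, stood at 43.9 and 56.6 FPKM in wild type, 197 and 213 in wox11, and 147 and 140 in jmj705 (log2 change 2.02, SE 0.15, adjusted p = 0.00265). PCL1 (LOC_Os01g74020), whose Arabidopsis relative LUX belongs to the evening complex, stood at 0.913 and 3.44 FPKM in wild type, 45.9 and 48.2 in wox11, and 3.80 and 6.11 in jmj705 (log2 change 4.04, SE 0.37, adjusted p = 0.00627). The PCL1 levels of jmj705 were thus close to those of wild type, while those of GI were closer to wox11. PRR1, a pseudo-response regulator of the evening, stood at 13.48 and 23.2 FPKM in wild type and 44.2 and 41.4 in wox11, without passing (adjusted p = 0.0704).

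Other clock genes hardly differed. PRR73 stood at 48.3 and 48.0 FPKM in wild type and 48.0 and 47.5 in wox11 (log2 change -0.01), and ELF3 at 9.42 and 7.99 against 9.67 and 9.03 (log2 change 0.10). PRR95 varied between libraries of the same genotype, from 15.6 to 35.3 FPKM in wild type and from 22.1 to 39.2 in wox11. Of the 8 tested clock genes with a symbol in RefSeq 2 rose and 1 fell, with a median log2 change of 0.20 against -0.02 over all tested loci, of which 0.456% rose and 0.382% fell. The list as written holds 2 more loci that RefSeq does not name, and 1 of them was called: LOC_Os11g34460 went from 1.405 and 4.48 FPKM to 22.0 and 19.1, with 11.5 and 17.2 in jmj705 (log2 change 2.57, SE 0.37). The wox11 libraries lay above the other 4. Over all 10 loci of the list 3 rose and 1 fell (median 0.25). The call of PCL1 ended without wox11 replicate 1 (adjusted p = 0.061) or 2 (0.07) and with no FPKM filter (0.111). The part that the hour of harvest may have in these levels was not tested.

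**Figure D4:**
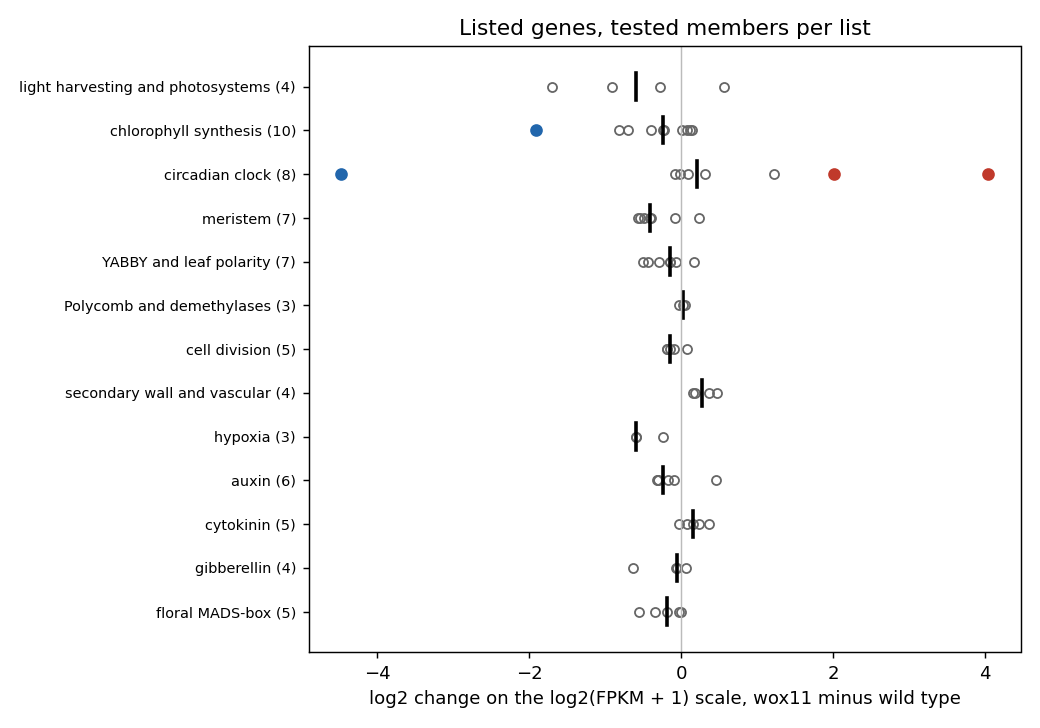
Log2 change between wox11 and wild type (x axis) of each tested gene with a symbol in RefSeq, in the lists with at least 3 such genes (y axis, number in brackets). Filled points are called genes, red for higher and blue for lower, open points are genes that were not called, and the bar is the list's median. Called genes are LHY, GI and PCL1 in the clock list and PORA in the chlorophyll list.

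Next to LHY, the largest falls came from 2 neighbouring loci on chromosome 9. LOC_Os09g39510 (22695120 to 22696145) stood at 15.6 and 12.99 FPKM in wild type, 0.0416 and 0.398 in wox11, and 12.2 and 29.4 in jmj705 (log2 change -3.66, SE 0.37, adjusted p = 0.0084). LOC_Os09g39530 (22699920 to 22700959) stood at 39.7 and 41.1 FPKM in wild type, 2.78 and 3.99 in wox11, and 37.3 and 64.1 in jmj705 (log2 change -3.25, SE 0.25, adjusted p = 0.00299). At both loci the wox11 libraries stood alone at the bottom, and jmj705 was near or above wild type. The call of LOC_Os09g39510 was 1 of 5 lost among the 10 largest falls when wox11 replicate 1 was left out (adjusted p = 0.0557 to 0.125), and 1 of 7 when replicate 2 was (0.0605 to 0.129).

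LOC_Os01g17396 fell from 6.74 and 6.27 FPKM to 0.135 and 0.149 (log2 change -2.72, adjusted p = 0.0177), with 1.96 and 0.392 in jmj705. LOC_Os10g40520 fell from 23.3 and 13.3 FPKM to 2.23 and 2.01 (log2 change -2.58, adjusted p = 0.00835), with 10.2 and 13.7 in jmj705. The first of these was low in both mutants, the second mainly in wox11. LOC_Os02g49680 fell from 52.5 and 49.4 FPKM to 9.97 and 7.13 (log2 change -2.46, adjusted p = 0.00127), with 30.4 and 27.3 in jmj705, and was called under each of the 16 other settings. LOC_Os03g01020, LOC_Os02g39360, LOC_Os01g40310 and LOC_Os04g53180 fell with log2 changes of -2.35, -2.34, -2.11 and -2.05. Of the 10 largest falls, 8 lost the call with no FPKM filter (adjusted p = 0.0774 to 0.155).

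Of the 5 loci of highest wild-type level that rose, LOC_Os07g34570 had the largest log2 change. It stood at 55.1 and 141 FPKM in wild type, 914 and 691 in wox11, and 456 and 648 in jmj705 (log2 change 3.16, SE 0.42, adjusted p = 0.0263). The wild-type libraries were far apart from each other here, and both lay below the wox11 libraries. CATA (LOC_Os02g02400), a catalase that breaks down hydrogen peroxide, rose from 49.5 and 73.1 FPKM to 237 and 242 (log2 change 1.97, adjusted p = 0.0292), with 207 and 350 in jmj705. LOC_Os03g53590 rose from 41.0 and 53.1 FPKM to 201 and 232 (log2 change 2.19, adjusted p = 0.0041), and LOC_Os03g55090 from 52.2 and 59.3 to 123 and 111 (log2 change 1.05, adjusted p = 0.0277). GI was the remaining locus, and 4 of the 5 lost the call without wox11 replicate 2 (adjusted p = 0.054 to 0.179).

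The loci of highest wild-type level that fell included PORA (LOC_Os04g58200), a light-dependent protochlorophyllide reductase of chlorophyll synthesis. It stood at 258 and 322 FPKM in wild type, 88.8 and 65.6 in wox11, and 237 and 199 in jmj705 (log2 change -1.90, SE 0.20, adjusted p = 0.00987). LOC_Os08g39330 fell from 397 and 268 FPKM to 117 and 82.8 (log2 change -1.72, adjusted p = 0.0277), LOC_Os07g37550 from 231 and 264 to 102 and 75.1 (-1.49, adjusted p = 0.0142) and LOC_Os11g13890 from 195 and 183 to 90.3 and 55.1 (-1.41, adjusted p = 0.0419). LOC_Os12g37840 fell from 158 and 148 FPKM to 73.8 and 86.8 (log2 change -0.93, adjusted p = 0.0319). The genotypes did not overlap at any of these 5 loci. All 5 lost the call without wox11 replicate 2 (adjusted p = 0.0923 to 0.181).

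Of the 10 tested genes of chlorophyll synthesis with a symbol in RefSeq, PORA fell and 9 were not called, with a median log2 change of -0.23 (0.382% of all tested loci fell). With the 5 listed loci that RefSeq does not name, 2 of 15 fell (median -0.39), the second being LOC_Os11g16550, from 32.6 and 35.8 FPKM to 18.1 and 18.0. HEMB, an early enzyme of tetrapyrrole synthesis, stood at 55.1 and 48.7 FPKM in wild type and 31.0 and 31.9 in wox11 (adjusted p = 0.0719). CHLH, a subunit of magnesium chelatase, stood at 34.3 and 31.5 FPKM against 19.99 and 16.7 (adjusted p = 0.172), while GSA and HEMC overlapped between the genotypes. RCA (LOC_Os11g47970), which encodes Rubisco activase, was the 1 tested Calvin cycle gene with a symbol in RefSeq. RCA fell from 27.9 and 25.0 FPKM to 11.4 and 10.5 (log2 change -1.20, SE 0.12, adjusted p = 0.00852), with 14.2 and 14.3 in jmj705, and it shares coordinates with another entry. Over the whole written list of the Calvin cycle, 3 of 9 tested loci fell and 0 rose, with a median log2 change of -0.23. Besides RCA these were 2 loci that RefSeq does not name, LOC_Os04g38600, from 94.7 and 81.5 FPKM to 39.6 and 41.02, and LOC_Os12g17600, from 39.8 and 43.4 to 24.4 and 21.5. CAB2R, a chlorophyll a/b-binding protein, stood at 522 and 484 FPKM in wild type and 235 and 101 in wox11, and the wide spread of the latter left it uncalled (log2 change -1.70, adjusted p = 0.104). Of the 4 tested genes of light harvesting and photosystems with a symbol in RefSeq, CAB2R among them, 0 were called (median log2 change -0.59). FNR1 went the other way, from 12.2 and 11.7 FPKM in wild type to 19.1 and 17.2 in wox11 (log2 change 0.57). PSAH was lower in wox11 (-0.91), and PETE overlapped between the genotypes (-0.27). The written list is much wider: of its 25 tested loci 3 fell and 0 rose, with a median of -0.97. The loci that fell were LOC_Os07g37550 and LOC_Os11g13890, described above, and LOC_Os02g10390, from 83.2 and 91.9 FPKM to 33.1 and 19.2. Membership of loci that RefSeq does not name rests on general knowledge and was not checked against an annotation.

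OsTrxf (LOC_Os01g68480), a chloroplast thioredoxin that activates enzymes in the light, fell from 50.7 and 51.6 FPKM to 19.97 and 21.5 (log2 change -1.27, SE 0.11, adjusted p = 0.00432). HMGR3 (LOC_Os08g40180), an enzyme of isoprenoid synthesis, fell from 90.9 and 86.1 FPKM to 39.7 and 34.2 (-1.24, adjusted p = 0.0252). INO1 (LOC_Os03g09250), which makes inositol phosphate, fell from 57.1 and 54.4 FPKM to 22.7 and 22.2 (-1.28, adjusted p = 0.0078). In all 3 the jmj705 libraries lay between wild type and wox11.

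D14 (LOC_Os03g10620), the receptor of strigolactones, fell from 39.2 and 42.5 FPKM to 23.6 and 23.4 (log2 change -0.77, adjusted p = 0.042), with 33.8 and 38.8 in jmj705. PIP2-2 (LOC_Os02g41860), an aquaporin of the plasma membrane, fell from 8.52 and 7.35 FPKM to 2.74 and 2.83 (-1.24, adjusted p = 0.0419). HAP3F (LOC_Os07g41580), a subunit of a CCAAT-binding factor, fell from 9.47 and 10.6 FPKM to 4.39 and 4.54 (-1.01, adjusted p = 0.0346). CAD3, EXLA4, an expansin-like gene, and LSD1 fell as well, with log2 changes of -1.15, -1.28 and -0.83.

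Among the named loci that rose, CIN1 (LOC_Os02g33110), an invertase of the cell wall that splits sucrose, went from 10.2 and 9.51 FPKM to 27.6 and 24.2 (log2 change 1.31, SE 0.13, adjusted p = 0.00758). GLO1 (LOC_Os03g57220), a glycolate oxidase of photorespiration, went from 10.8 and 10.5 FPKM to 20.3 and 19.7 (0.84, adjusted p = 0.029). CIPK10 (LOC_Os03g22050), a protein kinase of calcium signalling, went from 2.90 and 4.57 FPKM to 23.9 and 13.7 (2.03, adjusted p = 0.0346). GLO1 in jmj705 was below wild type, at 7.89 and 8.06 FPKM, and CIPK10 in jmj705 overlapped wox11, at 18.4 and 26.8. HSFC1B, a heat stress transcription factor, GER7 and the glutaredoxin gene GRXC4 rose with log2 changes of 1.85, 1.20 and 1.20. In all, 23 called loci carry a symbol, of which 11 rose and 12 fell, and the other 157 do not. CAD9 is counted there for each of its entries, including the entry that joins it with LOC_Os03g12280. Of the 23, 19 lost the call without wox11 replicate 2 (adjusted p = 0.054 to 0.268).

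The remaining lists held 0 called genes each, whether or not loci without a RefSeq symbol were counted. Among genes with a symbol this covers YABBY and leaf polarity (7 tested genes, median log2 change -0.15), Polycomb and demethylases (3, 0.02), cell division (5, -0.15), hypoxia (3, -0.59) and heat shock (2, -0.66). It also covers auxin (6, -0.24), cytokinin (5, 0.15), gibberellin (4, -0.06) and floral MADS-box genes (5, -0.18). The lists of root, seed, jasmonate and defence, and diterpenoid phytoalexins had 0 tested genes with a symbol. As written, root held 2 tested loci (median -0.86), jasmonate and defence 3 (1.05), and the other lists named here 0. Chloroplast biogenesis had 2 tested genes (median -0.405). GLK1, a transcription factor that promotes chloroplast development, stood at 42.7 and 44.6 FPKM in wild type and 28.6 and 24.0 in wox11 (adjusted p = 0.0632). GLK2 hardly differed, at 15.8 and 15.4 FPKM in wild type and 14.9 and 14.1 in wox11 (log2 change -0.10).

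Some called loci were close neighbours. Within 20 kb of each other lay 20 called loci in 9 runs, and in 3 runs the loci share coordinates, so that their reads may be divided. No such count was made for other tested loci, so the runs are described and not read as clustering. The longest run was on chromosome 5 (2436923 to 2465040), where all 4 tested loci rose. LOC_Os05g05020 stood at 5.03 and 5.88 FPKM in wild type, 28.1 and 24.9 in wox11, and 11.8 and 15.7 in jmj705 (log2 change 2.09, adjusted p = 0.00367). LOC_Os05g05030 stood at 1.11 and 0.846 FPKM, 12.3 and 8.28, and 5.71 and 4.43 in the same order (2.49, adjusted p = 0.00442). The next neighbours repeat this order of genotypes. LOC_Os05g05040 stood at 6.33 and 9.41 FPKM, 31.4 and 34.0, and 15.6 and 19.0 (1.95, adjusted p = 0.0078), and LOC_Os05g05060 at 43.6 and 48.2, 224 and 215, and 87.1 and 129 (2.24, adjusted p = 0.00432). At each of the 4 loci wild type was lowest, wox11 highest and jmj705 between them, with no overlap.

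A pair on chromosome 4 moved in opposite directions. LOC_Os04g13140 fell from 8.91 and 8.61 FPKM to 3.20 and 2.65 (log2 change -1.32, adjusted p = 0.0336), and LOC_Os04g13160 rose from 0.987 and 1.27 to 3.79 and 3.99 (1.20, adjusted p = 0.0277). On chromosome 7, LOC_Os07g32680 rose beside the joined entry described above, from 0.412 and 0.723 FPKM to 2.92 and 4.52 (1.58, adjusted p = 0.0267). Of the 20 neighbouring loci, 14 lost the call without wox11 replicate 1 and 14 without replicate 2 (adjusted p up to 0.218 and 0.22). In the run on chromosome 5, LOC_Os05g05020 and LOC_Os05g05030 were not among them.

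JMJ705 was mapped on chromatin with an antibody against a FLAG tag, in apices with an over-expressed copy, either in wild-type or in wox11 plants, at 1 peak list each and so with no replicate. The sources at hand do not name the promoter of that transgene. In the wild-type background, 10 of the 180 called loci had a peak within 1 kb, or 5.56% (95% Clopper-Pearson interval 2.7 to 9.98%, counting error only), against 4.18% of all tested loci. In the wox11 background there were 8, or 4.44% (1.94 to 8.57%), against 3.52%. In both lists the share over all tested loci lay within the interval, which treats loci as independent and is not a test. LOC_Os12g08760 and LOC_Os12g08830, which share coordinates and peaks, were counted separately in both lists. The 15 loci concerned were near a peak of the wild-type background alone in 7 cases, of the wox11 background alone in 5, and of both in 3. The lists rest on different depths, 5043282 and 7509947 tags, so the presence of a peak in 1 list alone was not compared.

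LHY overlapped a peak in the wild-type background (chromosome 8, 3360521 to 3361819), with 39 tags and the authors' fold enrichment of 4.18. PCL1 overlapped a peak in the wox11 background (chromosome 1, 42875303 to 42876294), with 52 tags and a fold enrichment of 10.6. LOC_Os02g49680 and LOC_Os01g17396, which fell, were near a peak of the wild-type background with fold enrichments of 5.76 and 4.48.

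Of the loci close to silent in wild type, LOC_Os12g14224 rose from 0.112 and 0 FPKM to 5.78 and 5.84, with 4.18 and 4.83 in jmj705 (log2 change 2.69, adjusted p = 0.000833). The joined entry of LOC_Os12g13445 and LOC_Os12g13450 went from 0 and 0.0380 FPKM to 8.19 and 8.40, with 0.0358 and 0 in jmj705 (3.19, adjusted p = 0.000403). LOC_Os12g24050 rose from 0.0140 and 0.00687 FPKM to 3.43 and 2.36, with 2.79 and 2.101 in jmj705 (1.93, adjusted p = 0.0107). These 3 and LOC_Os03g25510, listed at 0 in wild type, were near peaks of the wild-type background, with fold enrichments of 5.99, 6.38, 9.06 and 6.23. The peaks of highest fold enrichment near called loci belonged to the wox11 background, whose list rests on the greater depth. They lay by LOC_Os08g41880, which rose from 15.1 and 18.1 FPKM to 60.5 and 52.4 (fold enrichment 20.4), and by LOC_Os04g56060, which fell from 21.0 and 19.8 to 11.1 and 11.5 (18.1). The series lists an input library for the wild-type background only, so fold enrichments may not be comparable between the lists. LOC_Os12g08760 and LOC_Os12g08830 are separate entries with the same coordinates, chromosome 12 from 4412864 to 4638446, so a peak anywhere in that span counted for both. LOC_Os02g38574 (chromosome 2, 23274592 to 23454696) and LOC_Os02g43080 (chromosome 2, 25922315 to 25979092) also share wide coordinates with another entry. Their peaks lay inside these spans. Of the 15 loci near a peak, 11 lost the call without wox11 replicate 1 and 11 without replicate 2 (adjusted p up to 0.286 and 0.22).

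The number of calls depended on single libraries more than on the scaling. Without wox11 replicate 2, 35 loci were called, 32 higher and 3 lower, and without replicate 1 there were 43, 28 and 15. Without wild-type replicate 1 or 2 there were 67 and 84. None of the 180 calls changed sign under any setting. Of the 21 loci called under each of the 16 other settings, 19 were higher in wox11, and the 2 lower ones were LHY and LOC_Os02g49680.

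**Figure D5:**
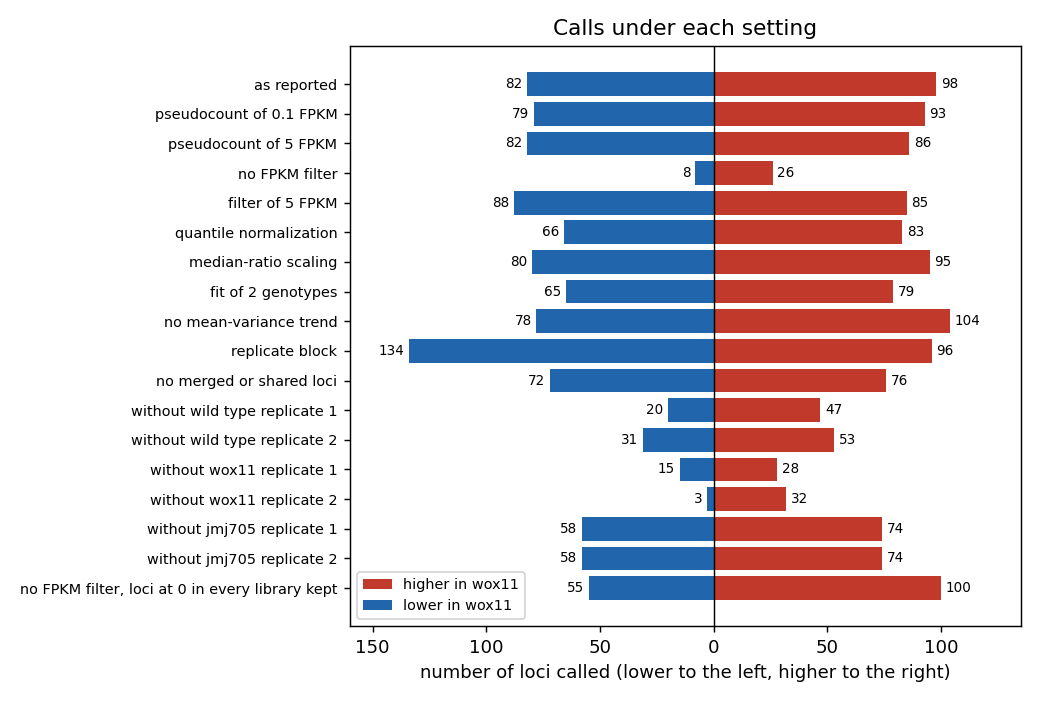
Number of loci called (x axis, lower in wox11 to the left in blue, higher to the right in red) under each setting (y axis). Calls as reported are 82 lower and 98 higher, and the fewest are those with no FPKM filter and those without a wox11 library.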

How the data were processed

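RNA was measured as FPKM per locus in 6 libraries. The deposited tables give these FPKM values with confidence bounds, per the file headers; Trimmomatic, TopHat and Cufflinks are named in the submitters' processing notes, without versions. MACS 1.4.2 made the deposited peaks with a p-value limit of 1e-05, per the file headers. Each deposited peak has a tag count, a fold enrichment (a ratio), a false discovery rate as a percent, and a score, which is the negative log10 of its p-value times 10.

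Of 57567 loci, 1848 without a gene name and 13 with a failed estimate were left out. The remainder with 1 FPKM in 2 libraries was put on the log2(FPKM + 1) scale and fitted over all 6 libraries by genotype, using limma 3.58.1 (R 4.3.3), a mean-variance trend, 3 residual degrees of freedom and Benjamini-Hochberg adjustment at 0.05. On simulated data for 21480 loci with 200 changed, the fit called 63% of shifts of 1 on the log2(FPKM + 1) scale. It called 96% of shifts of 2, with 3.05% of calls false. The changed loci were drawn only from those with a mean over 2 on that scale. The simulated noise was normal and independent, with the spread the fit had estimated. These shares therefore do not cover changes at loci of lower level, where many of the rises lay. Figures and counts used Python 3.

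The comparison, the gene lists and the rule for named loci were chosen with earlier results of these data known. The 21 lists (157 genes) were written again from general knowledge after the files had been seen. Of these genes, 95 symbols lay at a like place in RefSeq's table for ASM3414082v1, and only they are named; counts over the lists as written, without the 6 loci RefSeq places elsewhere, stand beside them. That assembly is another build, so it gave names and no coordinates. A further 17 symbols were attached to called loci after the calls were seen and checked in the same way. Loci named are WOX11 and JMJ705, the 10 largest rises and falls, the 5 of highest wild-type level in each direction, called list members, called neighbours within 20 kb, called loci within 1 kb of a peak, and those at the threshold. Other loci named with on or off levels or beside WOX11, and those with a symbol, were chosen after their values were seen. No sequences are printed.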

Additional observations from a re-analysis of the deposited data

How the results depend on the processing

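The count of 180 called loci stayed within 1.5 times under 11 of the 16 other settings. With no FPKM filter it was 34 (26 higher, 8 lower) of 32888 loci. A setting added after seeing the data, which also keeps loci at 0 in every library, gave 155 (100 higher, 55 lower), of which 26 were among the 180. Leaving out 1 library gave 35 to 132 called loci, 28 to 74 higher and 3 to 58 lower. The 2 fits without a jmj705 library share their residuals, and a lone library is assumed to vary like the other genotypes. With the replicate number as a block, 230 were called, 96 higher and 134 lower, and 153 of the 180 were among them. Among named loci the block ended the calls of CIPK10, PIP2-2, GER7 and GRXC4 (adjusted p = 0.0592 to 0.0644), LOC_Os04g13140 and LOC_Os03g15910 (0.0538 to 0.0641), LOC_Os03g25510 and LOC_Os04g11040 (0.0593 to 0.0624) and LOC_Os09g25850 (0.0578). Same-numbered libraries deviated together weakly (correlations 0.292, 0.118 and 0.114), but the labels tie the 2 numbers to no shared batch, so the fit without the block is reported. The cause of these shifts was not tested. The share of called loci near a peak of the wild-type background was 2.22% for peaks at or above the median score, against 2.05% of tested loci. Direction held in every setting for the 180 called loci and for WOX11 and JMJ705. For other uncalled loci it was not compared. Read depth is unknown, so no counting error per locus was computed beyond the confidence bounds that come with each FPKM value.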

Other observations

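Called loci were spread over all 12 chromosomes. The share called ran from 0.396% of tested loci on chromosome 6, where 0 rose and 7 fell, to 1.4% on chromosome 12, where 11 rose and 6 fell. On chromosome 3, 21 rose and 9 fell, on chromosome 5, 10 rose and 2 fell, and on chromosome 1, 14 rose and 15 fell. These counts are given without a test. By the limits used for on and off, 19 loci were on in both jmj705 libraries and off in wild type and wox11, beside the 17 on in wox11 alone.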
